A study of Mus musculus with 59 samples.

Results

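Genes that mark Kupffer cells and other macrophages were followed across livers of mice in which genes of the E2F family had been altered. The 10 genes were chosen by name (Csf1r, Clec4f, Cd5l, Marco, Vsig4, Adgre1, Cd68, C1qa, C1qb and Timd4). Earlier results of these data were known at that time, so the choice was not a blind one. All 10 were on the array, with 15 of its 45101 probe sets, and they make up 10 of the 18193 genes that were tested. Liver RNA was taken at 4 weeks (1 month) of age from mice on a mixed background of FVB/NT, 129S1/Svlmj and C57BL/6NT. There were 12 arrays of wild-type mice (wt), 10 of mice with the E2f3a knock-out (3aKO), 10 of mice carrying the E2F1 knock-in (1KI) and 5 of mice carrying the E2F3b knock-in (3bKI). No source used here gives the locus that received the knock-ins, or says whether those mice also lack E2f3a. The authors normalized wt, 3aKO and 1KI together (normalization 1), and wt, 3aKO and 3bKI together (normalization 2). The wt and 3aKO arrays are the same 22 arrays in both, so the comparisons share their reference arrays. The labels do not say that each array is a separate animal, so the p-values below measure the spread between these arrays.

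Kupffer cells are the resident macrophages of the liver and lie in its sinusoids, where they take up bacteria, debris and old red cells from the blood. They depend on signals through the CSF1 receptor and keep a set of surface receptors that sets them apart from recruited monocytes. E2F proteins are transcription factors known for their control of genes of the cell cycle. In whole liver a marker of macrophages reports on a small share of the cells.

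The marker genes differ in their start regions. Promoter windows of 300 bases around the start (RefSeq, GRCm38.p6) were at hand for 7 of the 10 genes and not for Csf1r, Adgre1 and C1qa. They were searched on both strands for GAGGAA, the core that the macrophage factor PU.1 (gene Spi1) is known to bind, for the longer GAGGAAGT, which contains that core, and for TTTCGCGC, TTTGGCGC, TTTCCCGC and TTTGGCGG, letters known as E2F sites. GAGGAA was in 5 of the 7 promoters (C1qb, Cd5l, Cd68, Marco and Vsig4) and in 28.3% of 32851 promoters. GAGGAAGT was in 0 of the 7 and in 3.20% of all, and the E2F letters were in 0 of the 7 and in 2.37% of all. The windows of Clec4f and Timd4 held no GAGGAA, and Timd4 is among the markers called below. The called markers thus do not all carry the core. Cd68 holds the core but is not shown. Stretches of 80 bases from before the start are shown for Marco, Vsig4, Cd5l and C1qb, which hold the core. The core is in capitals and the letters run 5′ to 3′ along the gene. For Cd5l the core lies on the other strand and so reads TTCCTC. They lie at chr1:120505128-120505207 (Marco, minus strand), chrX:96293551-96293630 and chrX:96293449-96293528 (Vsig4, minus strand), chr3:87357778-87357857 (Cd5l, plus strand) and chr4:136886201-136886280 (C1qb, minus strand).
Marco: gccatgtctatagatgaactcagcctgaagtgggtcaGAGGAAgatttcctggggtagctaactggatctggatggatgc
Vsig4, far: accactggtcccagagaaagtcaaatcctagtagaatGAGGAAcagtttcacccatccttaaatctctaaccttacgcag
Vsig4, near: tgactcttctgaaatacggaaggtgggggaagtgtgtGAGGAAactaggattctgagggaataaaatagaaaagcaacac
Cd5l: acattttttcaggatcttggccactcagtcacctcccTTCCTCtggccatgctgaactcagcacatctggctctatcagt
C1qb: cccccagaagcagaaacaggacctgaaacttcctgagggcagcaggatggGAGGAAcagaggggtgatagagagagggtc
A match to these letters is a description of the sequence and not a bound site.

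The arrays differed in ways that touch the results. The 18 hybridization control probe sets, which read RNA added to the labelled sample, stood at a higher level on all 10 1KI arrays (11.0 to 11.8 on the log2 scale), on all 5 3bKI arrays (11.2 to 11.9) and on wt replicates 1 and 2, and at a lower level on the other 10 wt and all 10 3aKO arrays. The 24 poly-A control probe sets averaged 13.8 on each of the 3bKI arrays and between 8.19 and 9.69 on the wt and 3aKO arrays of that normalization. RNA integrity was read as the 3' minus 5' signal of Actb and Gapdh, which grows as RNA is degraded. It was 0.275 to 0.36 in 3bKI and 0.475 to 0.755 in wt and 3aKO, and in 1KI it was 0.445 to 0.665 except for 1.75 in replicate 6. The 10 hepatocyte markers of a fixed list averaged between 13.1 and 13.5 on every array, and every 1KI array (13.325 to 13.487) was above every wt array of its normalization (13.195 to 13.314). The targeted genes gave no clear check of the labels: the brighter E2f3 probe set was lower in 3aKO than in wt by 0.25 ± 0.07 without passing (limma adjusted p = 0.11, moderated SE, 10 and 12 arrays), and the brightest E2f1 probe set was at 6.39 in 1KI against 6.63 in wt and was called lower in 1KI than in 3aKO (by 0.29, limma adjusted p = 0.049). In 3bKI the brighter E2f3 probe set was called lower than in wt (by 0.24, limma adjusted p = 0.049), and the dimmer one higher than in 3aKO (by 0.395, limma adjusted p = 0.00031). No source used here says where these probes lie relative to the altered exons.

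In wild-type liver each resident cell marker stayed within a range of at most 0.77 over the 12 arrays. Each gene is given by its main probe set, the brightest of the gene, as log2 signal. Clec4f, a lectin known from mouse Kupffer cells, ran from 10.32 through a median of 10.63 to 10.93 over the 12 wt arrays of normalization 1. Timd4, a receptor for phosphatidylserine on dying cells, ran from 7.31 through 7.615 to 7.84. Vsig4, a receptor for complement C3 fragments, ran from 9.97 through 10.205 to 10.54. The wt arrays thus spread over about the same range for these 3 genes. Cd5l, a secreted scavenger protein of tissue macrophages, ran from 10.11 through 10.46 to 10.88. Marco, a class A scavenger receptor for bacteria and particles, ran from 6.85 through 7.415 to 7.62. Csf1r, the receptor for CSF1 and IL-34, ran from 10.98 through 11.24 to 11.64. Cd5l, Marco and Csf1r thus spanned a wider range in wt than the 3 genes before them. Adgre1, which encodes F4/80, ran from 7.53 to 8.15, and Cd68, a glycoprotein of lysosomes, from 7.36 to 7.85. C1qa and C1qb, chains of the complement starter C1q whose genes lie close together on chromosome 4, ran from 9.82 to 10.27 and from 9.25 to 9.72. Signals of different probe sets are not compared with each other.

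The spread within a genotype was wider in the altered genotypes. The SD of Marco was 0.24 in wt, 0.48 in 3aKO and 0.98 in 1KI, and 1.10 in 3bKI. In wt the SDs of the 10 genes were higher than those of 54.0% to 90.4% of all genes, in 3aKO than those of 88.3% to 98.6%, in 1KI than those of 81.5% to 99.6%, and in 3bKI than those of 61.4% (Adgre1) to 99.5% (Marco). The markers varied more than the median gene in every genotype, wt included. For Csf1r the share in 3bKI (76.3%) was near that in wt of the same normalization (75.1%), and the same held for Adgre1.

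**Figure D1:**
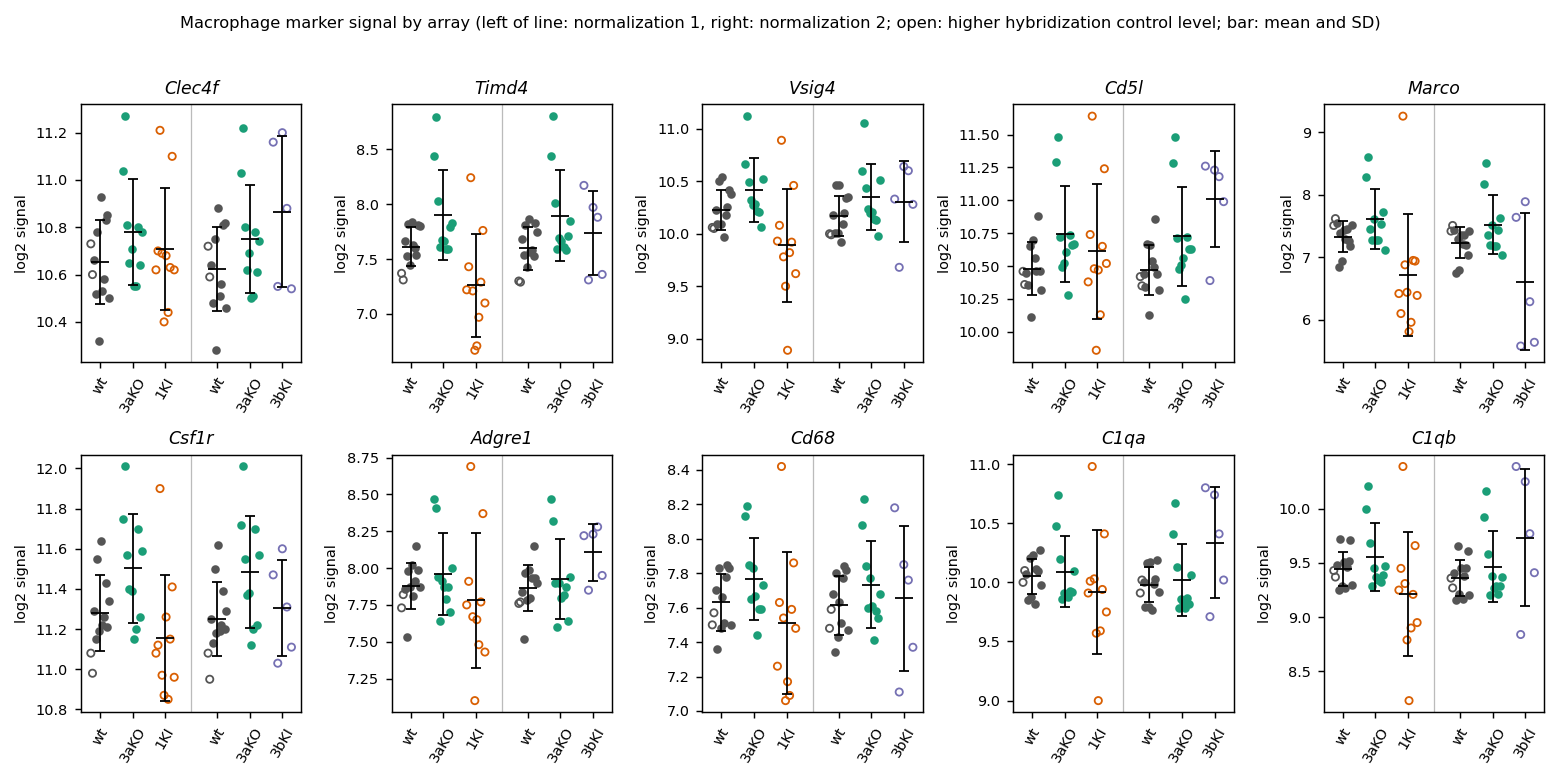
Log2 signal of each marker gene (main probe set) on every array, with group means and SD as bars; points left of the line are from normalization 1 and points right of it from normalization 2, and open points mark arrays at the higher level of the hybridization controls. In each panel the wt points lie close together, and at least 2 3aKO points and at least 1 1KI point lie above them.

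A few arrays moved as a block over the whole set of markers. On 3aKO replicates 1 and 2 all 10 genes were above the highest wt array, with a median difference from the wt mean of 0.53 and 0.75. Of all genes, 10.3% and 12.7% were above the highest wt array there. On 1KI replicate 3 all 10 genes were above it too (median difference 0.80, 10.5% of all genes). The other 8 3aKO arrays had at most 1 gene above the wt range and none below it.
The 1KI arrays went both ways. On replicate 5 there were 9 genes below the lowest wt array, on replicate 7 there were 8, on replicate 10 there were 7 and on replicate 6 there were 6. Between 13.8% and 29.8% of all genes were below the lowest wt array on these 4 arrays. On 1KI replicate 9, by contrast, 5 genes were above the highest wt array, as were 8.77% of all genes. The 1KI arrays thus lay on both sides of the wt range.
On the 5 3bKI arrays 14.8% to 20.3% of all genes were above the highest wt array and 17.9% to 20.7% below the lowest. Of the markers, 3bKI replicates 1 and 3 had 8 and 9 above the highest wt array. Replicate 4 had 6 above and 1, Marco, below the lowest. Replicate 2 had 5 below it, while replicate 5 had 1 above and 1 below. Other macrophage genes went with these arrays. The median difference from wt of 12 phagosome and signalling genes was 0.52 and 0.68 on 3aKO replicates 1 and 2, 0.93 on 1KI replicate 3, and -0.62, -0.68 and -0.55 on 1KI replicates 5, 6 and 7. Genes of other cells moved on these arrays too. The median of the sinusoidal endothelium list was 0.15 and 0.23 on 3aKO replicates 1 and 2, 0.24 on 1KI replicate 3, and -0.24, 0.12 and -0.41 on 1KI replicates 5, 6 and 7. The T and NK cell list was at 0.42 on 3aKO replicate 2 and at -0.32 on 1KI replicate 5, and the MHC class II list at 0.41 on 1KI replicate 3. The same median over 10 hepatocyte markers was between -0.05 and 0.04 on these 6 arrays. The part of these cells in the marker values was not tested. In bulk tissue, more cells of a type and more RNA of its genes per cell cannot be told apart.

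**Figure D2:**
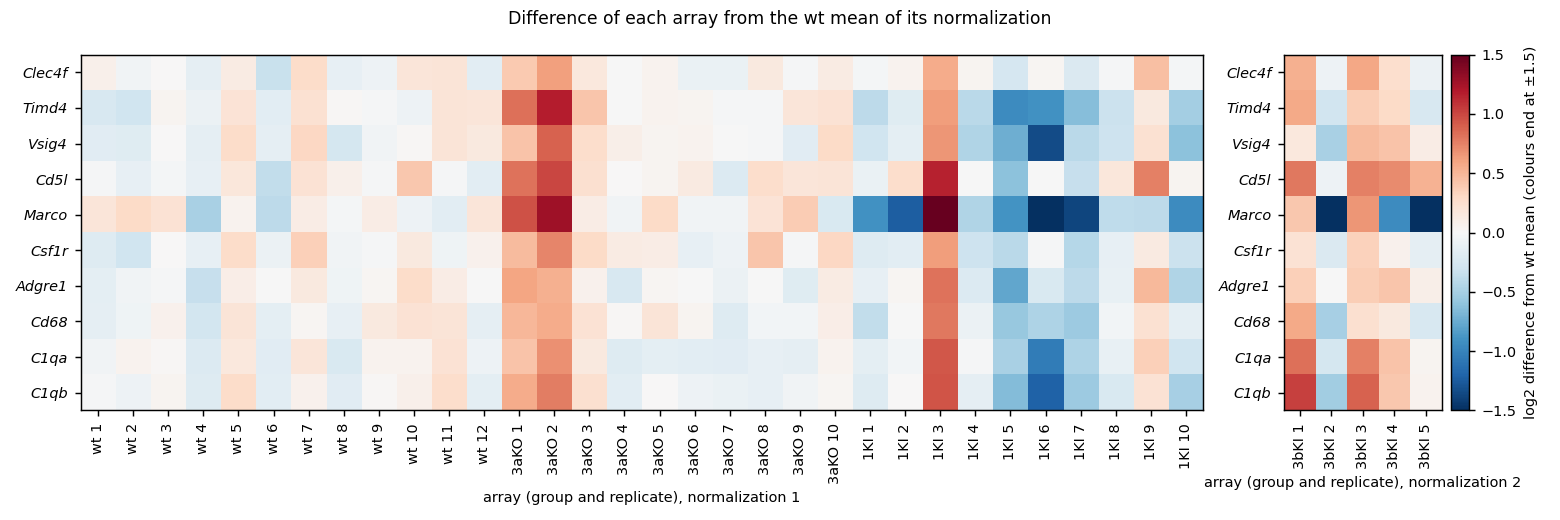
Difference of each array from the wt mean of its normalization for the 10 marker genes, as a colour from -1.5 to 1.5 on the log2 scale; rows are genes and columns are arrays by group and replicate. Red columns stand at 3aKO replicates 1 and 2 and 1KI replicate 3, where all 10 genes exceed the highest wt array, and the deepest blue is the Marco row of 1KI and 3bKI.

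Loss of E2f3a left the markers without a called difference. Of the 10 genes 0 passed limma at an adjusted p of 0.05 over all genes in either direction, in a comparison where 0.110% of 18193 genes were called higher and 0.0660% lower (0.176% in all, 32 genes), and 1 had an unadjusted p under 0.05. All 10 log2 changes were positive, from 0.04 (C1qa) to 0.29 (Timd4), with a median of 0.16, while the median of all genes was -0.01 and 45.1% of all genes were positive. For Csf1r, the gene with an unadjusted p under 0.05 (0.042), 3aKO ran from 11.15 through a median of 11.485 to 12.01 and the change was 0.22 ± 0.11 (moderated SE, 10 and 12 arrays, limma adjusted p = 0.39). The groups overlapped, as they did for every marker here and for all but 0.0110% of all genes, and 7 of 10 3aKO arrays were above the wt mean. Timd4 in 3aKO ran from 7.59 through 7.73 to 8.79, with a change of 0.29 ± 0.15 (limma adjusted p = 0.44). Its 3 highest 3aKO arrays were above the wt range and the others lay within it. Without 3aKO replicate 2 the median change of the 10 genes was 0.10, and without replicate 1 it was 0.13, with 9 genes positive in both. Each of these fits keeps the other of the 2 arrays. Over 3aKO replicates 3 to 10 the median difference from wt ran from -0.10 (replicate 7) to 0.23 (replicate 3). It was below 0 on replicates 4, 6, 7, 8 and 9.

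In the first normalization, 4 of the 10 main probe sets were lower in 1KI than in 3aKO and 0 were higher. Of all genes 19.0% were called lower and 11.9% higher in this comparison (31.0% in all, 5636 genes). The 10 log2 changes were all negative with a median of -0.30, beside a median of -0.03 over all genes, of which 42.9% were positive. The genes called were Timd4, Marco, Vsig4 and Csf1r, and for each the 2 groups overlapped, as they did for all but 4.04% of all genes.
Timd4 ran in 1KI from 6.67 through a median of 7.215 to 8.24, and 8 of the 10 arrays were below the lowest 3aKO array. It fell by 0.64 ± 0.15 (1.56-fold lower, limma adjusted p = 0.0016, 10 and 10 arrays). Marco ran in 1KI from 5.81 through 6.43 to 9.26 and in 3aKO from 7.11 through 7.495 to 8.60. The 1KI arrays lay below every 3aKO array except for replicate 3, which was above them all. Marco fell by 0.90 ± 0.26 (1.87-fold lower, limma adjusted p = 0.0079).
Vsig4 ran in 1KI from 8.89 through 9.87 to 10.89 and in 3aKO from 10.06 through 10.30 to 11.12, and 7 of 10 1KI arrays were below the lowest 3aKO array. It fell by 0.53 ± 0.15 (limma adjusted p = 0.0082). Csf1r ran in 1KI from 10.85 through 11.10 to 11.90, with 6 of 10 arrays below the lowest 3aKO array, and fell by 0.345 ± 0.11 (limma adjusted p = 0.016). Replicate 3 was the highest 1KI array for all 4 genes.
The main probe sets of the other 6 markers did not pass. C1qb differed by -0.34 ± 0.16 and Cd68 by -0.26 ± 0.12, each with a limma adjusted p of 0.10, and Clec4f was the least changed, at -0.07 ± 0.09 (limma adjusted p = 0.61). Adgre1, C1qa and Cd5l lay between -0.18 and -0.135. Each of the 4 calls was kept when any 1 of the 20 arrays was left out, and without 1KI replicate 3 C1qb and Cd68 passed too (6 genes).

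Against wild type, none of the 10 markers passed in 1KI by main probe set. In that comparison 27.6% of all genes did (10.2% higher and 17.5% lower), and limma gave 3 markers an unadjusted p under 0.05. Dimmer probe sets of C1qb that were called are given below. The changes were negative for 8 of 10 with a median of -0.13, beside -0.05 over all genes, of which only 35.6% were positive. Marco differed by -0.62 ± 0.25 (limma adjusted p = 0.062), and 6 of 10 1KI arrays were below its lowest wt array. Timd4 differed by -0.35 ± 0.15 (limma adjusted p = 0.070) and Vsig4 by -0.34 ± 0.15 (limma adjusted p = 0.080), each with 7 of 10 1KI arrays below the lowest wt array. Groups that did not overlap were found for 1.39% of all genes and for 0 of the markers. Cd5l and Clec4f had positive values of 0.13 ± 0.15 and 0.06 ± 0.09. The count rested on single arrays: without 1KI replicate 3 there were 4 lower genes (Marco by 0.90, Timd4 by 0.46, Vsig4 by 0.45 and C1qb by 0.36), and without replicate 9 there were 2 (Timd4 and Vsig4). The E2F1 knock-in was compared with wt and with 3aKO on the same 10 arrays, so the 2 comparisons are not separate evidence.

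**Figure D3:**
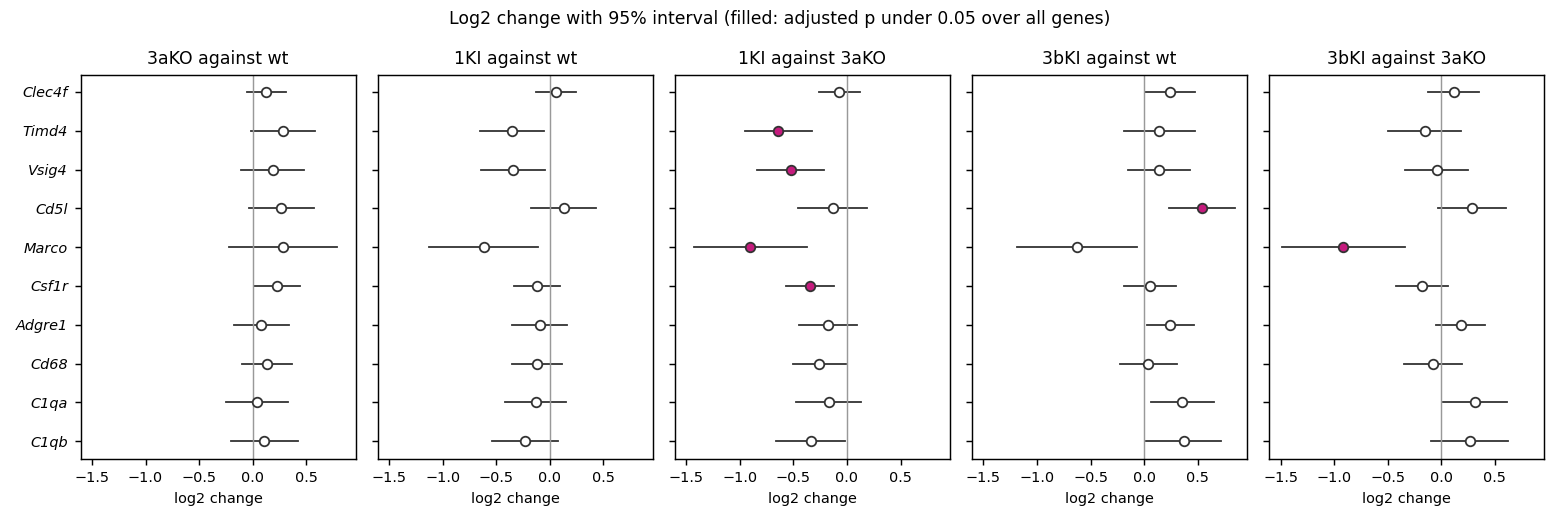
Log2 change of each marker gene in the 5 comparisons, with the 95% interval of limma as bars; filled points have an adjusted p under 0.05 over all genes. Filled points lie left of 0 for Timd4, Vsig4, Marco and Csf1r in 1KI against 3aKO and for Marco in 3bKI against 3aKO, and right of 0 for Cd5l in 3bKI against wt.

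The hybridization control level moved with the knock-ins and bears on these calls. In wt itself, 8 of the 10 markers were lower on the 2 arrays of the higher level than on the other 10, and the median difference over all 10 was -0.10. Csf1r was at 11.08 and 10.98 on those 2 arrays, below the lowest of the others at 11.15, and Timd4 was at 7.37 and 7.31, below the lowest of the others at 7.45. Marco went the other way, at 7.51 and 7.62 against 6.85 to 7.55. With that level as a block, 0 of the 10 markers passed in 1KI against 3aKO, and the share of all genes called fell from 31.0% to 2.29%. The change of Timd4 was then -0.31 (limma adjusted p = 0.68), that of Vsig4 -0.32 (limma adjusted p = 0.67) and that of Csf1r -0.05 (limma adjusted p = 0.95). That of Marco was -1.18 (limma adjusted p = 0.25), further from 0 than without the block. All 3aKO arrays have the lower level and all 1KI arrays the higher, so the block rests on the 2 wt arrays. Against those 2 arrays alone, Marco in 1KI differed by -0.85 (limma adjusted p = 0.54), and 9 of 10 1KI arrays were below both.

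**Figure D4:**
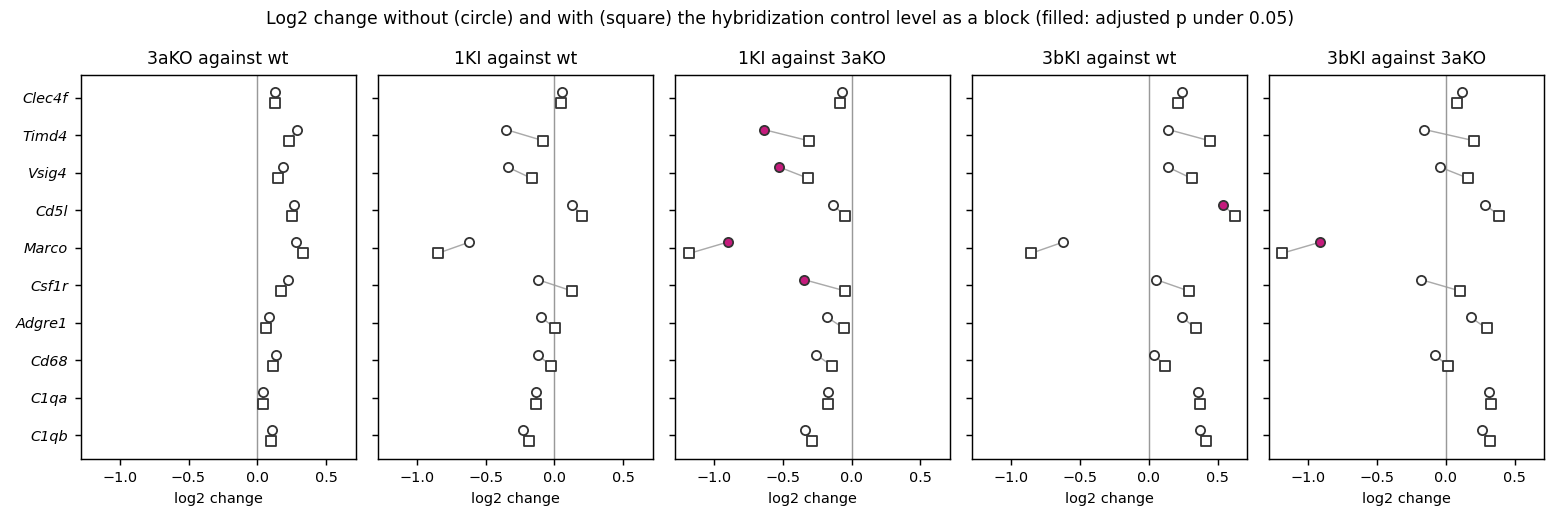
Log2 change of each marker gene without (circle) and with (square) a block for the level of the hybridization controls, in the 5 comparisons; filled symbols have an adjusted p under 0.05 over all genes. With the block no symbol is filled, the values of Timd4, Vsig4 and Csf1r in 1KI against 3aKO move toward 0, and that of Marco moves away from 0.

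In livers with the E2F3b knock-in, Cd5l rose and the main probe sets of the other 9 markers had no called difference from wild type. Further probe sets of Csf1r that were called are given below. Called higher were 13.4% of all genes and lower 15.9% (29.2% in all, 5318 genes). Cd5l was at 11.26, 10.39, 11.23, 11.18 and 10.99 on the 5 3bKI arrays and ran from 10.13 through 10.44 to 10.86 in wt. All 3bKI arrays but replicate 2 were above the highest wt array, and groups without any overlap were found for 7.18% of all genes. The rise was 0.54 ± 0.15 (1.45-fold, limma adjusted p = 0.0068, 5 and 12 arrays).
Of the 10 genes 9 had positive values, with a median of 0.19 beside 0.00 over all genes, of which 50.2% were positive. C1qa was at 10.80, 9.71, 10.74, 10.41 and 10.02, with a change of 0.36 ± 0.14 (limma adjusted p = 0.058), and C1qb had a change of 0.37 ± 0.17 (limma adjusted p = 0.11). Replicates 1, 3 and 4 were above the wt range for both and replicate 2 below it. Adgre1 (0.24 ± 0.11) and Clec4f (0.24 ± 0.11) had adjusted p-values of 0.092 and 0.12 in limma. Csf1r, Cd68, Timd4 and Vsig4 had values from 0.04 to 0.14.
Among the main probe sets Marco alone was negative. It was at 7.64, 5.58, 7.89, 6.29 and 5.64 on the 5 3bKI arrays and ran from 6.75 through 7.325 to 7.51 in wt. It was thus above the wt range on replicates 1 and 3 and below it on the other 3, and the difference was -0.62 ± 0.27 (limma adjusted p = 0.090).
Against 3aKO, Marco was lower in 3bKI by 0.91 ± 0.28 (1.88-fold, limma adjusted p = 0.012). It was the only 1 of the 10 main probe sets to pass, where 16.5% of all genes were higher and 17.7% lower (34.2% in all, 6218 genes). The 3aKO arrays ran from 7.04 through 7.395 to 8.51, and only replicates 2, 4 and 5 of 3bKI were below them, so these groups overlap too, where 12.2% of all genes had groups that did not. The other 9 markers lay between -0.18 (Csf1r) and 0.315 (C1qa), and the median of all 10 was 0.04, beside 0.02 over all genes.
These results turn on few arrays. The rise of Cd5l was kept when any 1 of 17 arrays was left out. Without 3bKI replicate 2 there were 5 higher genes against wt (Cd5l by 0.69, C1qb by 0.59, C1qa by 0.51, Clec4f by 0.32 and Adgre1 by 0.31). Without replicate 5 there were 3 (Cd5l, C1qa and Clec4f), and without replicate 1 or 3 Marco passed as lower beside Cd5l, by 0.88 and 0.94. Against 3aKO the call of Marco was lost without 3bKI replicate 2 or 5, at -0.66 (limma adjusted p = 0.078) and -0.67 (limma adjusted p = 0.071). There, without 3aKO replicate 2, C1qa and Cd5l passed as higher beside Marco, and without 3bKI replicate 2 the genes that passed were C1qa, C1qb and Cd5l, all higher.
Other measures moved with 3bKI. With the control level as a block, 0 main probe sets passed in either comparison, while Cd5l was at 0.625 and Marco at -0.86 against wt. With RNA integrity as a covariate, 0 passed and the median change against wt was -0.02 in place of 0.19, while the share of all genes called fell from 29.2% to 3.33%. The integrity values of 3bKI and wt do not overlap, so this fit rests on the slope within groups. The poly-A controls separate 3bKI from all other arrays, and what they and 3bKI each contribute cannot be told apart.

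Genes with several probe sets did not always give 1 answer. Tests over every probe set with 1 symbol called 0.424% of 34945 when 3aKO was set against wt. For 1KI they called 29.2% with wt as the reference and 32.0% with 3aKO, and for 3bKI the same references gave 30.2% and 34.9%. Of the 3 probe sets of Csf1r, the main one (1419872_at) was called lower in 1KI than in 3aKO, by 0.345 ± 0.11, but 1419873_s_at was at 0.04 ± 0.11 and 1423593_a_at at 0.02 ± 0.11. In 3bKI the order turned. The main probe set was at 0.05 ± 0.12 against wt, while 1419873_s_at was called higher by 0.30 ± 0.11 (limma adjusted p = 0.047) and 1423593_a_at by 0.55 ± 0.09 (limma adjusted p = 4.1e-05). On 1423593_a_at the 5 3bKI arrays were at 9.40, 9.10, 9.65, 9.46 and 9.12, all above the wt arrays, which ran from 8.58 through 8.745 to 9.06. That probe set was higher against 3aKO as well, by 0.58 ± 0.10 (limma adjusted p = 2.6e-05), with 3aKO at 8.49 to 9.08. With the control level as a block it was still called against wt, at 0.46 ± 0.15 (limma adjusted p = 0.045). The 3 probe sets of Csf1r thus disagree on both knock-ins, and none of their changes stands for the gene as a whole.
For C1qb the dimmer probe sets were called where the main one was not. In 1KI against 3aKO, 1434366_x_at fell by 0.40 ± 0.10 (limma adjusted p = 0.0019) and 1437726_x_at by 0.54 ± 0.14 (limma adjusted p = 0.0037), and against wt they fell by 0.25 ± 0.09 (limma adjusted p = 0.042) and 0.45 ± 0.14 (limma adjusted p = 0.012). All 3 had the same sign in 1KI. In 3bKI the main probe set was positive against wt (0.37 ± 0.17) and the other 2 negative (-0.15 ± 0.13 and -0.32 ± 0.22), and none was called. Probe sets ending in _x_at can bind related transcripts.
The 2 probe sets of Marco went together. The second, 1458297_s_at, fell by 0.69 ± 0.22 in 1KI against 3aKO (limma adjusted p = 0.014) and by 0.66 ± 0.23 in 3bKI against 3aKO (limma adjusted p = 0.024), and it was not called against wt in either knock-in (-0.50 ± 0.21 and -0.50 ± 0.22). The other 7 genes have 1 probe set each.

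**Figure D5:**
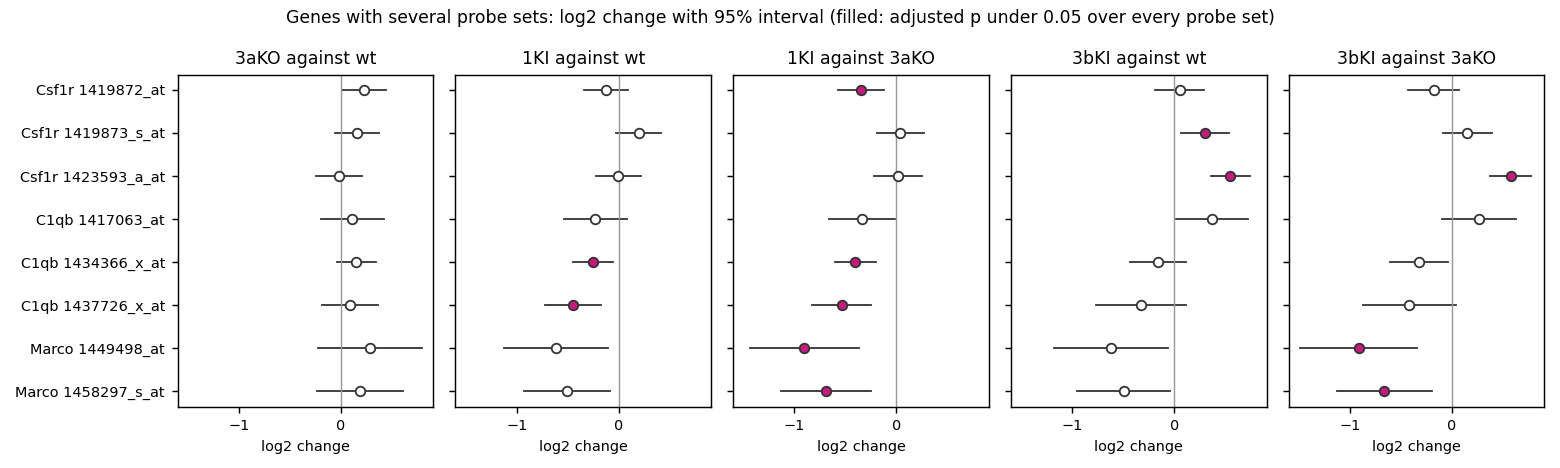
Log2 change of every probe set of Csf1r, C1qb and Marco in the 5 comparisons, with the 95% interval of limma as bars; filled points have an adjusted p under 0.05 over every probe set. The Csf1r probe sets separate in both knock-ins, the C1qb probe sets have 1 sign in 1KI and 2 in 3bKI, and both Marco probe sets lie left of 0 in all knock-in comparisons.

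The markers varied together from array to array within a genotype. After the group mean was taken from each value, C1qa and C1qb had Pearson r = 0.985 and Spearman rho = 0.946 over the 32 arrays of normalization 1. Both permutation p-values were 1e-05, the smallest that 100000 resamples can give, and after adjustment over 6 pairs they were 2e-05 and 3e-05. The value was r = 0.965 without the 2 arrays farthest from the median (1KI replicates 3 and 6).
Csf1r and Adgre1, both found on macrophages in general, had r = 0.814 and rho = 0.777, and r = 0.693 without 1KI replicate 3 and 3aKO replicate 2. C1qa and Cd5l had r = 0.809 and rho = 0.770, and r = 0.852 without 1KI replicates 3 and 6. For the resident cell markers, Clec4f had r = 0.816 and rho = 0.643 with Timd4, and r = 0.736 and rho = 0.643 with Vsig4. Without 1KI replicate 3 and 3aKO replicate 2 these were r = 0.687 and r = 0.572. Marco and Cd68 had r = 0.804 and rho = 0.586, and r = 0.596 without the same 2 arrays. The adjusted permutation p-values of these 5 pairs were 2e-05 to 4e-05 for r and 3e-05 to 0.0013 for rho.
Within genotypes Pearson r was lower in wt than in 3aKO and 1KI for each of the 6 pairs. By Spearman rho, wt was above 3aKO for Csf1r and Adgre1 (0.725 and 0.693) and for C1qa and C1qb (0.886 and 0.867). The rho of Marco and Cd68 was 0.091 in wt, 0.474 in 3aKO and 0.624 in 1KI. Marco and Cd68 had r = 0.297 over the 12 wt arrays, r = 0.818 over the 10 3aKO and r = 0.873 over the 10 1KI arrays, and Clec4f and Timd4 had r = 0.421, 0.929 and 0.895. C1qa and C1qb had r = 0.893 in wt. Within the 20 arrays at the lower control level r ran from 0.711 to 0.972 over the 6 pairs, and within the 12 at the higher level from 0.717 to 0.990. All 45 pairs of the 10 genes had r between 0.662 and 0.985, with a median of 0.816, as a description of arrays that share their preparation.
Outside the 10 markers, the genes most like each one by the same measure were picked for their high r and are given without a test. Several markers were closer to another marker than to any of these, such as Vsig4 to C1qa (r = 0.944) and Clec4f to Cd5l (r = 0.915). The reverse did not hold for these pairs. Among the other genes, C1qa and C1qb were closest to C1qc (r = 0.960 and 0.960), the third chain of C1q, and then to the protease gene Ctss (r = 0.947 and 0.939). Tyrobp, an adaptor of activating receptors, was the closest gene of Cd5l (r = 0.921), Adgre1 (r = 0.910) and Clec4f (r = 0.902). Cd68 was closest to Fcer1g (r = 0.928), Vsig4 to Ctss (r = 0.913), Timd4 to Adgre4 (r = 0.914) and Csf1r to Fyb (r = 0.879). Marco was closest to the formyl peptide receptor gene Fpr2 (r = 0.903) and the Fc receptor gene Fcgr1 (r = 0.890). The second genes were Pld4 for Cd5l (r = 0.910), Tfec for Adgre1 (r = 0.902), Slc11a1 for Clec4f (r = 0.880), Clec4a3 for Cd68 (r = 0.925), Dock10 for Vsig4 (r = 0.901), Tmsb4x for Timd4 (r = 0.911) and Itgal for Csf1r (r = 0.873).

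Further macrophage genes were counted in lists. The lists of C1q partners and of heme and iron recycling were picked by function and do not mark macrophages alone. All counts are to be read against the shares of all genes called in each comparison, given above. In 3aKO against wt limma called 0 of 120 genes in 15 lists, and 9 had an unadjusted p under 0.05. In 1KI against 3aKO, 0 of 12 phagosome and signalling genes rose and 5 fell, among them the lysosomal protease gene Ctss (by 0.84 ± 0.17), Aif1 (by 0.56 ± 0.17) and the perforin-like Mpeg1 (by 0.49 ± 0.16), and the median of the list was -0.26. Of 13 surface and scavenger receptor genes 0 rose and 4 fell, with Sirpa, the receptor for the CD47 signal, at -0.865 ± 0.09 and no overlap of groups, and a list median of -0.22. Of 11 growth factor and transcription factor genes 0 rose and 2 fell, Zeb2 by 0.595 ± 0.11 and Maf by 0.42 ± 0.10, a share near the 19.0% of all genes called lower. Of 5 genes of heme and iron recycling, the iron exporter gene Slc40a1 (by 0.43 ± 0.04, no overlap) and Hmox1 (by 0.43 ± 0.10) fell, and the biliverdin reductase gene Blvrb rose by 0.33 ± 0.09. The partners of C1q had 1 of 5 higher, C2 (by 0.315 ± 0.09). With the control level as a block, Slc40a1 and Sirpa alone passed among the 27 genes named from all lists in this comparison.
Against wt, Ctss fell in 1KI by 0.68 ± 0.16 as 1 of 12 phagosome genes, Sirpa by 0.78 ± 0.08 as 1 of 13 receptor genes, and Slc40a1 by 0.43 ± 0.04 and Hmox1 by 0.46 ± 0.10 as 2 of 5. Of the 11 growth factor and transcription factor genes 2 fell, Maf (by 0.42 ± 0.10) and Zeb2 (by 0.45 ± 0.11), and 2 rose, among them Spi1, which encodes PU.1 (by 0.20 ± 0.07). Among the partners of C1q, C2 rose by 0.33 ± 0.09. With the control level as a block, 3 of the 22 genes named from all lists still passed (Slc40a1, Sirpa and the hepatocyte gene Ass1). Maf, Zeb2, Spi1, Ctss, Hmox1 and C2 did not, and Zeb2 was then at -0.11 and Spi1 at 0.03.
In 3bKI against wt the lists went both ways. Of the 11 growth factor and transcription factor genes 5 rose and 2 fell. Spi1 rose by 0.60 ± 0.11 and Csf2ra, a chain of the GM-CSF receptor, by 0.71 ± 0.13, while Zeb2 fell by 0.56 ± 0.12. Of the 12 phagosome genes 3 rose (Tyrobp by 0.56 ± 0.17, Lgmn by 0.47 ± 0.12 and Cyba by 0.41 ± 0.13) and 0 fell. Of the 13 receptor genes Folr2 rose by 0.41 ± 0.13, and the hemoglobin scavenger receptor gene Cd163 (by 1.06 ± 0.26) and Sirpa (by 0.36 ± 0.12) fell. C1qc rose by 0.52 ± 0.17 and C2 by 0.35 ± 0.11, 2 of 5 partners of C1q, and Slc40a1 fell by 0.40 ± 0.05. With the control level as a block, 7 of the 27 genes named from all lists still passed. Among them were Slc40a1 of the heme and iron list and Csf2ra of the growth factor and transcription factor list. With RNA integrity as a covariate 3 of the 27 passed (H2-Eb1, Slc40a1 and Pck1). Tyrobp was then at 0.25, Lgmn at 0.11, Cyba at 0.07, Folr2 at 0.13 and C1qc at 0.04.
In 3bKI against 3aKO the 11 growth factor and transcription factor genes had 5 higher and 2 lower. Nr1h3, which encodes a nuclear receptor, rose by 0.27 ± 0.07 there with no overlap. The phagosome genes had 3 higher and 0 lower of 12, the receptors 0 and 2 of 13 (Cd163 fell by 0.96 ± 0.27), the partners of C1q 2 and 0 of 5, and heme and iron genes 2 and 1 of 5. With the control level as a block 4 of the 32 genes named from all lists still passed, among them Slc40a1 of the heme and iron list. The median difference from wt of that list was -0.002 and 0.02 on 3aKO replicates 1 and 2. It was 0.02 on 1KI replicate 3, and all 10 markers were above the wt range on these arrays. Which cells the Slc40a1 signal comes from was not tested.

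Markers of other cells that whole liver holds were read beside the macrophage genes, and their part in the results was not tested. Of 9 dendritic cell and MHC class II genes, H2-Aa fell by 1.24 ± 0.28 and H2-Ab1 by 1.03 ± 0.28 in 1KI against 3aKO, while in 3bKI against wt 4 rose and 0 fell, with H2-Eb1 higher by 1.86 ± 0.12, Cd74 by 1.47 ± 0.22 and H2-Ab1 by 1.06 ± 0.26. Kupffer cells express MHC class II genes too. The mean signal of that list ran from 6.35 to 7.57 over the 1KI arrays, from 6.70 to 7.43 over 3aKO and from 6.76 to 7.04 over wt. In normalization 2 it ran from 7.25 to 7.60 in 3bKI and from 6.70 to 6.98 in wt. Every 3bKI array thus lay above every wt array on the mean of this list. The 3aKO arrays of that normalization ran from 6.64 to 7.39 and overlapped 3bKI. The median change of the 9 genes in 3bKI against wt was 0.04, so the higher mean was not shared by all of them.
Of 6 monocyte genes 0 rose and 1 fell in 1KI against 3aKO, Cx3cr1 (by 0.58 ± 0.10, no overlap), and the mean signal of the list was 5.13 to 5.43 in 1KI and 5.30 to 5.535 in 3aKO. Of 7 T and NK cell genes 1 rose and 4 fell in that comparison (Cd3g by 0.61 ± 0.11, Cd3d by 0.28 ± 0.08 and Gzma by 0.35 ± 0.10), with a list mean of 5.84 to 6.23 in 1KI and 6.02 to 6.48 in 3aKO. None of 7 neutrophil, 4 B cell and 5 erythroid genes passed in it, where limma gave none of the 16 an unadjusted p under 0.05. Of 11 genes of the sinusoidal endothelium, next to which Kupffer cells sit, Stab1 (by 0.35 ± 0.10) and Lyve1 (by 0.72 ± 0.21) rose and Kdr fell by 0.28 ± 0.09. In 3bKI against wt the endothelial genes Gpr182 (by 0.44 ± 0.12) and Pecam1 (by 0.43 ± 0.12) rose and Bmp2 fell by 0.43 ± 0.15.
Of 10 hepatocyte genes, Ass1 (by 1.25 ± 0.20) and Hnf4a (by 0.22 ± 0.05) rose in 1KI against wt and 0 fell. In 3bKI against wt Ass1 rose by 1.07 ± 0.21 and Pck1 fell by 0.45 ± 0.09.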

How the data were processed

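Liver RNA (5 ug of total RNA, Trizol, biotin-labelled cRNA, per the labels' protocols) was measured on 37 Affymetrix arrays, 22 of which were deposited in both normalizations. The authors deposited 1 value per probe set and array, normalized within each of the 2 sets of arrays per the labels. The log2 scale of the deposited values was read from their range, 2.13 to 15.06. The method and software behind them are not given in any source used here, and no detection calls were used. Array number, not read depth, limits the precision.

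Probe sets were named from the platform annotation: 34945 had 1 symbol, 932 several, 9160 none, and 64 were controls. The brightest probe set of each of 18193 genes was tested with limma 3.58.1 (R 4.3.3, lmFit and eBayes, all 3 groups of a normalization in 1 fit, Benjamini-Hochberg adjustment over all genes, threshold 0.05). No replicate order or batch entered that fit. Correlations used Python 3.11.15 and scipy 1.17.1. The fits were tested on simulated data. Alternatives were other filters, probe set choices, scalings, blocks and covariates, and leaving out each array.

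The members and gene lists were chosen with earlier results of these data known. Named genes are all 10 members with every probe set, up to 3 genes per other list and comparison with the smallest p among those passing, and the 2 genes most like each member by Pearson r. Of 134 genes listed outside the members, 120 were tested and the others were not analysed here. No label says that shared replicate numbers pair the arrays. In normalization 1, deviations of same-number arrays had a median r of 0.17 (wt with 3aKO), 0.06 (wt with 1KI) and 0.24 (3aKO with 1KI). Over all array pairs these medians were -0.003, 0.007 and 0.002. Of 10 pairs, 4 to 7 were above 0.1. In normalization 2 the median was 0.009 for wt with 3bKI and -0.19 for 3aKO with 3bKI. In 3aKO and 1KI, replicates 1 to 5 have high Xist and replicates 6 to 10 do not, so the numbers carry some shared structure.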

Additional observations from a re-analysis of the deposited data

Results flagged for a closer look

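Each of the 10 markers was tested in 3aKO, 1KI and 3bKI for a single array far from the others of its group. These are 30 tests on groups of 10 or 5 arrays, and wt was not tested. Of them 2 found one, and chance flags about 1 in 20 such tests. The markers vary together, so the tests are not separate. Both are 1KI replicate 3. Marco was at 9.26 there, and its gap to the next 1KI array was 0.670 of the range of the group, above the critical value of 0.466. Csf1r was at 11.90 there, with a gap of 0.467 of the range, barely above that value. The array also had all 10 markers above the highest wt array, and its RNA integrity measure was within the range of the other 1KI arrays except replicate 6.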

How the results depend on the processing

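The count of markers called was 0 in 3aKO against wt under all 17 alternatives and all 22 fits without 1 array. In 1KI against wt, limma called 1 with genes above the median signal, with the mean of a gene's probe sets, with quantile normalization, with array weights and without wt replicates 1 and 2, and 2 with equal array medians and with a sex index; leaving out 1 array gave 0 to 4. In 1KI against 3aKO it was 0 with the control level as a block, with or without a sex index, and 4 to 6 when 1 array was left out. In 3bKI against wt it was 2 with only the 2 groups fitted, with genes above the median signal, with probe set means, with array weights and with a sex index, 3 with quantile normalization, and 0 with the control level as a block (with or without a sex index), within 1 level and with RNA integrity as a covariate; leaving out 1 array gave 1 to 5. In 3bKI against 3aKO it was 2 with quantile normalization, array weights and a sex index, 0 with only the 2 groups fitted, with the level block (with or without a sex index) and with RNA integrity, and 0 to 3 when 1 array was left out. With the replicate number as a block (replicate block) the count became 0 in place of 1 for 3bKI against wt. It kept its value in the other 4 comparisons. No label says that the numbers pair the arrays. Uncalled markers changed sign too: positive markers went from 9 to 3 with RNA integrity in 3bKI against wt, and with the level block from 5 to 9 in 3bKI against 3aKO and from 2 to 4 in 1KI against wt. Genes outside the markers that were called and reversed follow. Epcam in 1KI was at 0.14 against wt and 0.09 against 3aKO without _x_at probe sets, at 0.12 and 0.19 with the level block (0.12 against wt within 1 level) and at 0.18 and 0.25 with that block and a sex index. Kdr was at 0.043 against wt (block and within 1 level) and 0.044 against 3aKO (block). With RNA integrity, 3bKI against wt gave Gpr182 -0.052 and Pecam1 -0.062, and 3bKI against 3aKO gave C1qc -0.15, Cyba -0.013, Pecam1 -0.039 and Gpr182 -0.066. Cd8a in 3bKI against 3aKO was at -0.053 without _x_at probe sets. The causes were not tested, except that the level block rests on 2 wt arrays and the fits without an array on fewer arrays.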

Other observations

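Arrays can be told apart by Xist against genes of the Y chromosome, which the labels do not use. In 3bKI the 2 arrays with high Xist are replicates 1 and 3. All 10 markers had a higher mean on them than on the other 3 arrays, by a median of 0.54. Marco differed most, by 1.93. These are 2 arrays against 3, and the markers varied together from array to array, so the 10 genes are not 10 separate observations. In 3aKO all 10 markers had a higher mean on the 5 Xist arrays than on the other 5, by a median of 0.31, and in 1KI all 10 did, by 0.17. The arrays that moved up as a block are all Xist arrays. The median difference from wt was 0.53, 0.75, 0.23, -0.003 and 0.05 on 3aKO replicates 1 to 5. In 1KI it was 0.80 on replicate 3. On the other Xist arrays of 1KI it ran from -0.64 to -0.02, and on the arrays without high Xist from -0.68 to 0.23. In wt 4 of 10 were higher, with a median difference of -0.01. The difference between these array kinds, and its part in the results, was not tested. Timd4, Marco, Vsig4 and Csf1r were still called lower in 1KI than in 3aKO with a sex index as a covariate. Both groups hold 5 arrays with high Xist and 5 without, so that covariate could move this comparison little. With the control level as a block beside the sex index, 0 of the 10 were called.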
